A study of Mus musculus with 8 samples.

Results

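DEAD and DEAH box proteins are a family of ATP-dependent RNA helicases, here the genes whose symbol begins with Ddx or Dhx and a digit in the platform's probe annotation. That rule found 80 probe sets for 39 genes, 28 named Ddx and 11 named Dhx, among the 12393 genes that have a probe set of their own. Each gene was read at its probe set with the highest mean over the 8 arrays. Signals are linear array intensities. A gene was tested when at least 2 arrays lay above the median of all signals, 144.5, which 35 of the 39 members did, 33 of them on all 8 arrays.

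The cells were MCE301, a mouse colonic epithelial cell line made from transgenic animals that carry a temperature-sensitive form of the simian virus 40 large T-antigen, which cells of every group therefore share. Cells were taken at 0 h or after 6 h, 12 h or 24 h with 2 mM sodium butyrate, an inhibitor of histone deacetylases, with 2 arrays at each time. The study asked which genes respond to butyrate in these cells. The later times have no untreated arrays here, so butyrate and time in culture cannot be told apart, and nothing in the labels ties the paired arrays to cultures grown apart. The p-values therefore cover only array-to-array spread, which may be technical. Of 10 epithelial markers, 8 were above the median on all arrays, among them Krt8, Krt18, Cdh1 and Epcam, while Vil1 and Lgals4 were below it on every array. The 8 fibroblast and 6 endothelial markers were below it on every array. Of 7 immune markers, Cd68 and Csf1r were above it on all arrays, Cd74 on 5, and Ptprc, Cd3e, Itgam and Lyz2 on none. The summed epithelial markers ran from 76408 to 94891 at 24 h and from 47192 to 51902 at 0 h. Among them Krt20 was 10.9-fold higher and Cdx2 1.63-fold lower at 24 h. The summed immune markers ran from 1728 to 1866 at 24 h and from 1268 to 1537 at 0 h, with Cd68 2.44-fold and Cd74 2.87-fold higher and Csf1r 2.88-fold lower at 24 h. The part of these markers in the results was not tested.

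RNA helicases of this family use ATP to open short RNA duplexes or to strip proteins from RNA. They are named for the amino acids of a conserved motif, Asp-Glu-Ala-Asp in DEAD box proteins and Asp-Glu-Ala-His in DEAH box proteins. Different members serve ribosome assembly in the nucleolus, the conformational steps of the spliceosome, export of messenger RNA through the nuclear pore, translation initiation, mRNA decay and the sensing of viral RNA.

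Most of the members that changed fell, and the number grew with time. After 24 h, 17 of the 35 tested members were lower than at 0 h, 48.6% of them, where 23.5% of all 7340 genes tested were lower, and 5 members were higher, 14.3%, where 24.6% of all genes were higher. At least 2-fold changes at 24 h were seen in 5 lower and 2 higher members of the 35, where 9.54% of all genes were lower and 9.25% higher by as much. Dhx38 is counted among the 17, the 5 and the members lower at 12 h. It entered the test through the time at which it was high. After 12 h, 11 members were lower (31.4%, against 17.5% of all genes) and 3 were higher (8.57%, against 18.1%). After 6 h, 3 were lower (8.57%, against 6.68%) and 3 were higher (8.57%, against 9.06%), shares near those of all genes. The median log2 change of the tested members was -0.30 at 24 h, -0.30 at 12 h and -0.08 at 6 h, where that of all genes tested was 0.04, 0.03 and 0.01. In these bulk samples fewer cells that express a gene and less of its RNA per cell cannot be told apart. Calls are Benjamini-Hochberg adjusted p-values under 0.05 over all genes tested, from limma fitted to log2(signal + 32) on all 8 arrays.

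The 24 h count of lower members depended on which arrays entered the fit. It was smaller when any 1 of the 0 h or 24 h arrays was left out, and so was the share of all genes lower. The share of members lower stayed above that of all genes in each of these fits, by the least without 24 h replicate 1. The 12 h count of lower members was also smaller without any 1 of the 0 h or 12 h arrays, as was the share of all genes lower. In these fits the share of members lower at 12 h was closer to that of all genes than with all arrays kept. At 6 h the lower members were fewer with any 1 array left out, most so with a 0 h array or 6 h replicate 1. The higher members at 6 h were fewest without 6 h replicate 1 or 0 h replicate 2. At 24 h the higher members were fewest without 0 h replicate 1 or 24 h replicate 2. The shares of all genes called fell in these fits as well. With all arrays kept but no filter on dim genes, 6 calls were lost at 24 h (Ddx5, Ddx24, Ddx49, Ddx27, Ddx41 and Ddx51, adjusted p = 0.0626 to 0.114), 5 at 12 h (Ddx39a, Ddx17, Dhx30, Dhx36 and Ddx56, 0.0532 to 0.117) and 3 at 6 h (Dhx16, Ddx10 and Dhx57, 0.0583 to 0.125). Without the filter, 13 of 39 members were lower at 24 h (33.3%), where 11.1% of all genes were. Further on, a lone value in brackets after a left-out array is the adjusted p of the limma fit without it. The comparisons with 0 h share the same 2 control arrays, so their calls are not independent of each other.

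**Figure D1:**
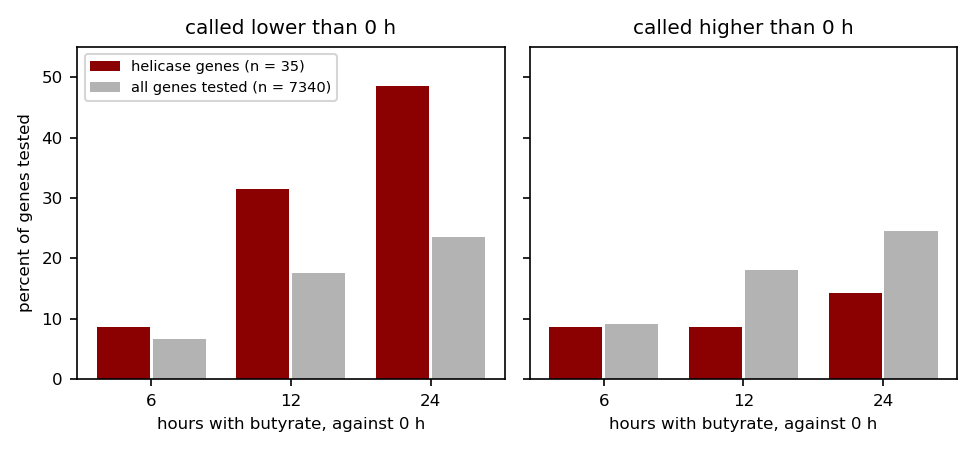
Percent of genes called lower (left) or higher (right) than at 0 h after 6, 12 and 24 h with butyrate, for the 35 tested helicase genes (dark bars) and all 7340 genes tested (grey bars). At 24 h, 48.6% of the helicases were lower, against 23.5% of all genes.

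The promoters of members that changed by at least 2-fold at 24 h are shown for comparison, with that of Ddx60, an interferon-induced gene below the filter. A RefSeq promoter (build GRCm38.p6) was found for 35 of the 39 members, and for Ddx39a, Dhx38, Dhx58 and Ddx6 there was no entry. Each sequence is the first listed promoter's 250 bases before the annotated start, 5' to 3' on the gene's strand, in lower case with matches in capitals to CACGTG (the E-box bound by MYC), CCAAT (the CCAAT box), TATAAA (the TATA box) or GAAA, any 2 bases and GAAA (a core of the interferon-stimulated response element), each searched on both strands.
Ddx3x, chrX:13280772-13281021, plus strand: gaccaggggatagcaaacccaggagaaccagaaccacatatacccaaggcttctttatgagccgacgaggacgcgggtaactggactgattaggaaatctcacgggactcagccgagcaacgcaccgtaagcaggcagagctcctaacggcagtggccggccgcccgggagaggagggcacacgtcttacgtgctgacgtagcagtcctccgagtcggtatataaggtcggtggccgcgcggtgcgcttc
Ddx18, chr1:121567981-121568230, minus strand: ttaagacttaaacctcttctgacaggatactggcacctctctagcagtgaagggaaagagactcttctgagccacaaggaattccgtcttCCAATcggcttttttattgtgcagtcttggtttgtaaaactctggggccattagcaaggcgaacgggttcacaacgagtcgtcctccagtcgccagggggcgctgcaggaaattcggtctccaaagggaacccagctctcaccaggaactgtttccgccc
Ddx39b, chr17:35241496-35241745, plus strand: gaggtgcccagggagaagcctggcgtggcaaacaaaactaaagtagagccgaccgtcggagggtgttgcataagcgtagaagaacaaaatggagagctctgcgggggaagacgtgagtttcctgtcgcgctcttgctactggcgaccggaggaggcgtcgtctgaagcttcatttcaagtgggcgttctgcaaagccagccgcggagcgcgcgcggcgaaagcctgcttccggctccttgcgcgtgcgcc
Dhx40, chr11:86807661-86807910, minus strand: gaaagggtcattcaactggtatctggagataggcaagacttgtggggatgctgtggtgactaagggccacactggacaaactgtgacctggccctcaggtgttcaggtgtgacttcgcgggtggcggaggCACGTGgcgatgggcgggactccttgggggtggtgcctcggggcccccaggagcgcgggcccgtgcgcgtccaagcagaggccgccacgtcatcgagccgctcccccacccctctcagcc
Dhx8, chr11:101732706-101732955, plus strand: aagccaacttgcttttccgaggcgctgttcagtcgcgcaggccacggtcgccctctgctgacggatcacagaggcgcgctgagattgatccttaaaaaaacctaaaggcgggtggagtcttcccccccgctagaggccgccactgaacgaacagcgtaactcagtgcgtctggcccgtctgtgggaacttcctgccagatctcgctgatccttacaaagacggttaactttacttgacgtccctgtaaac
Ddx60, chr8:61927837-61928086, plus strand: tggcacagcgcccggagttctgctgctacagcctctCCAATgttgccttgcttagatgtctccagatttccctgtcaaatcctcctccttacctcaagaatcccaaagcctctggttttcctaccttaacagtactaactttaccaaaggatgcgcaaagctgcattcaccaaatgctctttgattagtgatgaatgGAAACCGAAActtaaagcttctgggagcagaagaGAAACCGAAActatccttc

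Capitals mark a CCAAT box in Ddx18, an E-box 120 bases before the start in Dhx40, and in Ddx60 a CCAAT box and 2 interferon-response cores that begin 53 and 19 bases before the start. The windows of Ddx3x, Ddx39b and Dhx8 hold no match. An E-box was found in 2 of the 35 member promoters (5.71%, where 6.05% of the 27025 genes' promoters hold one), those of Dhx40 and the germ cell helicase Ddx4. An E-box stood in 0 of the 15 promoters of members lower at 24 h, 1 of the 5 of members higher and 0 of the 12 of members not called. Whether it goes with the change was not tested. A CCAAT box stood in 16 of 35 (45.7%, where 34.5% of all promoters hold one), including 9 of the 12 promoters of ribosome biogenesis members. By call at 24 h, it stood in 5 of 15 promoters of lower members (33.3%), 2 of 5 of higher members and 6 of 12 of those not called. A TATA box stood in 0 of the 35, where 13.0% of all promoters hold one. The interferon-response core stood in those of Ddx60 and Ddx49 (5.71%, where 3.04% of all hold one). The member promoters had a median GC content of 58.0%, where that of all promoters was 52.0%. These are matches of letters within the windows and were not tested as binding sites.

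**Figure D2:**
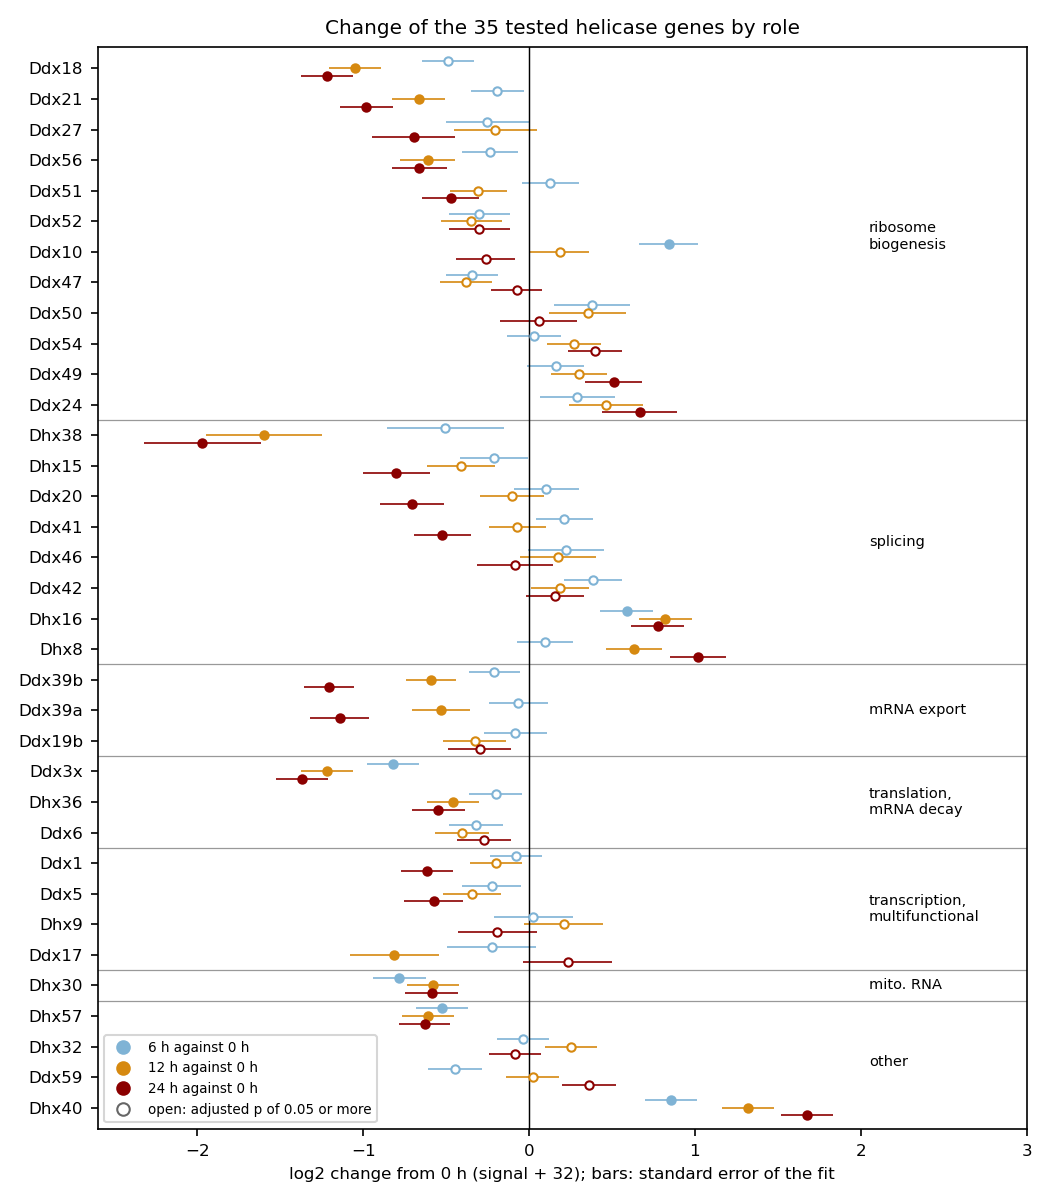
Log2 change from 0 h (horizontal axis, signal + 32) of the 35 tested helicase genes after 6 h, 12 h and 24 h, grouped by role. Filled points passed an adjusted p of 0.05, open points did not, and bars are standard errors of the fit. Dhx40, Dhx8 and Dhx16 stand on the right at 24 h, and Dhx38, Ddx3x, Ddx39b, Ddx39a and Ddx18 furthest to the left.

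Among the 12 helicases of ribosome biogenesis, 5 fell and 2 rose at 24 h, where 23.5% of all genes tested fell and 24.6% rose, with a median log2 change of -0.28. At 12 h 3 fell and 0 rose, where 17.5% of all genes fell and 18.1% rose. At 6 h 1 rose and 0 fell, where 9.06% of all genes rose and 6.68% fell. Ddx18, which in yeast (Has1) acts in maturation of both ribosomal subunits, had signals of 1231 and 1157 at 0 h, 921.1 and 771.3 at 6 h, 555.8 and 567.5 at 12 h and 488.6 and 500.7 at 24 h. Both arrays of each later time were below both 0 h arrays, and the log2 change was -1.22 ± 0.16 at 24 h (adjusted p = 0.000158) and -1.05 ± 0.16 at 12 h (adjusted p = 0.00077). At 6 h it was -0.49 ± 0.16 and did not pass (adjusted p = 0.0615), although it did with the replicate number as a block (adjusted p = 0.0371), and its second kept probe set was lower too, by -1.42 at 24 h.

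Ddx21, a nucleolar helicase that couples ribosomal RNA transcription with its processing, gave 855.0 and 903.7 at 0 h, 847.3 and 692.5 at 6 h, 568.4 and 517.4 at 12 h and 428.2 and 431.7 at 24 h. The 24 h mean of 430.0 ± 2.47 was lower than the 0 h mean of 879.4 ± 34.4 (SD, n = 2 arrays), a log2 change of -0.98 ± 0.16 (adjusted p = 0.000727), and at 12 h it was -0.67 (adjusted p = 0.0094). The 12 h call did not pass in fits that left out 0 h replicate 2 (0.0567) or 12 h replicate 2 (0.0622). Its other probe set was not called at 24 h (log2 change -0.34, adjusted p = 0.111). Ddx50, the close paralog of Ddx21 on the same chromosome, gave 670.3 and 1100 at 24 h and 733.4 and 925.4 at 0 h, arrays that overlapped, with a log2 change of 0.06 (95% interval -0.45 to 0.57).

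Ddx56, a nucleolar helicase of large subunit assembly, had signals of 703.8 and 621.0 at 0 h, 592.3 and 523.9 at 6 h, 407.8 and 436.2 at 12 h and 365.5 and 451.9 at 24 h. All arrays of the later times were below those of 0 h, and its log2 change was -0.66 ± 0.17 at 24 h (adjusted p = 0.00839) and -0.61 at 12 h (adjusted p = 0.0169). The 24 h call did not hold with 0 h replicate 1 (0.0609) or 24 h replicate 1 (0.0694) left out, nor the 12 h call with 0 h replicate 1 (0.104) or either 12 h array (0.0846 and 0.054) left out. Ddx27, which serves 3' end formation of the ribosomal RNA precursor, and Ddx51, also a helicase of large subunit assembly, were lower at 24 h by log2 changes of -0.69 (adjusted p = 0.0414) and -0.47 (adjusted p = 0.043). Both calls were near the threshold. That of Ddx27 was also lost with quantile normalisation (0.0546), and that of Ddx51 with all probe sets tested (0.05), trend and robust variances (0.0522) or only the 4 arrays compared (0.0605). With arrays left out, that of Ddx27 was lost without 24 h replicate 1 (0.224), either 0 h array (0.132 and 0.124) or either 12 h array (0.0505 and 0.0501), and that of Ddx51 without 24 h replicate 1 (0.256), either 0 h array (0.196 and 0.072), either 6 h array (0.0501 for both) or either 12 h array (0.052 and 0.0517).

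The 2 that rose in this role were Ddx24, whose yeast counterpart Mak5 serves the large subunit, and Ddx49, whose yeast counterpart Dbp8 serves the small subunit. Ddx24 gave 1039 and 1340 at 24 h, both above the 624.0 and 856.9 at 0 h (log2 change 0.67 ± 0.22, adjusted p = 0.0315), and was not called without 0 h replicate 1 (0.217) or 24 h replicate 2 (0.185). In a fit with the replicate number as a block it was also higher at 12 h (adjusted p = 0.0185; without the block 0.134). Ddx49 gave 911.3 and 935.9 at 24 h and 626.2 and 651.4 at 0 h (log2 change 0.51 ± 0.17, adjusted p = 0.0303), and the call was lost without any 1 of these 4 arrays, with adjusted p-values of 0.0857 and 0.105 without the 24 h arrays and 0.117 and 0.0859 without the 0 h arrays. Ddx54 had a log2 change of 0.40 at 24 h that did not pass (adjusted p = 0.0664, and 0.0353 with the replicate block). Its other probe set was not called at 24 h in a fit of all probe sets (log2 change 0.03, adjusted p = 0.919). Ddx47 (-0.07) and Ddx52 (-0.30), whose yeast counterparts Rrp3 and Rok1 act on the small subunit, did not pass at 24 h either (adjusted p = 0.723 and 0.205).

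Ddx10, whose yeast counterpart Dbp4 acts in early processing of the small subunit RNA, followed another course. Its signals were 650.6 and 473.2 at 0 h, 1052 and 991.0 at 6 h, 644.1 and 626.6 at 12 h and 487.0 and 431.0 at 24 h. Both 6 h arrays were above every other array, and the 12 h and 24 h arrays overlapped with those of 0 h. The log2 change was 0.84 ± 0.18 at 6 h (adjusted p = 0.0118). It did not pass once 0 h replicate 2 (0.09) or 6 h replicate 1 (0.0571) was left out. At 24 h it was -0.26 (adjusted p = 0.259). Its second probe set moved by 0.52 at 6 h, which did not pass (adjusted p = 0.137).

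The other genes of ribosome biogenesis on a list of partners are not helicases. Of 22 tested, 17 were lower and 0 higher at 24 h (median log2 change -0.93), where 23.5% of all genes were lower and 24.6% higher. At 12 h 12 were lower and at 6 h 4, where 17.5% and 6.68% of all genes were. At either time 0 were higher, where 18.1% and 9.06% of all genes were. Nop56, a core protein of box C/D small nucleolar RNPs, was 4.98-fold lower at 24 h, Utp20, a protein of the small subunit processome, 4.12-fold lower, and Gar1, a core protein of box H/ACA RNPs, 3.66-fold lower. The difference between this list and the 12 helicases was not tested.

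**Figure D3:**
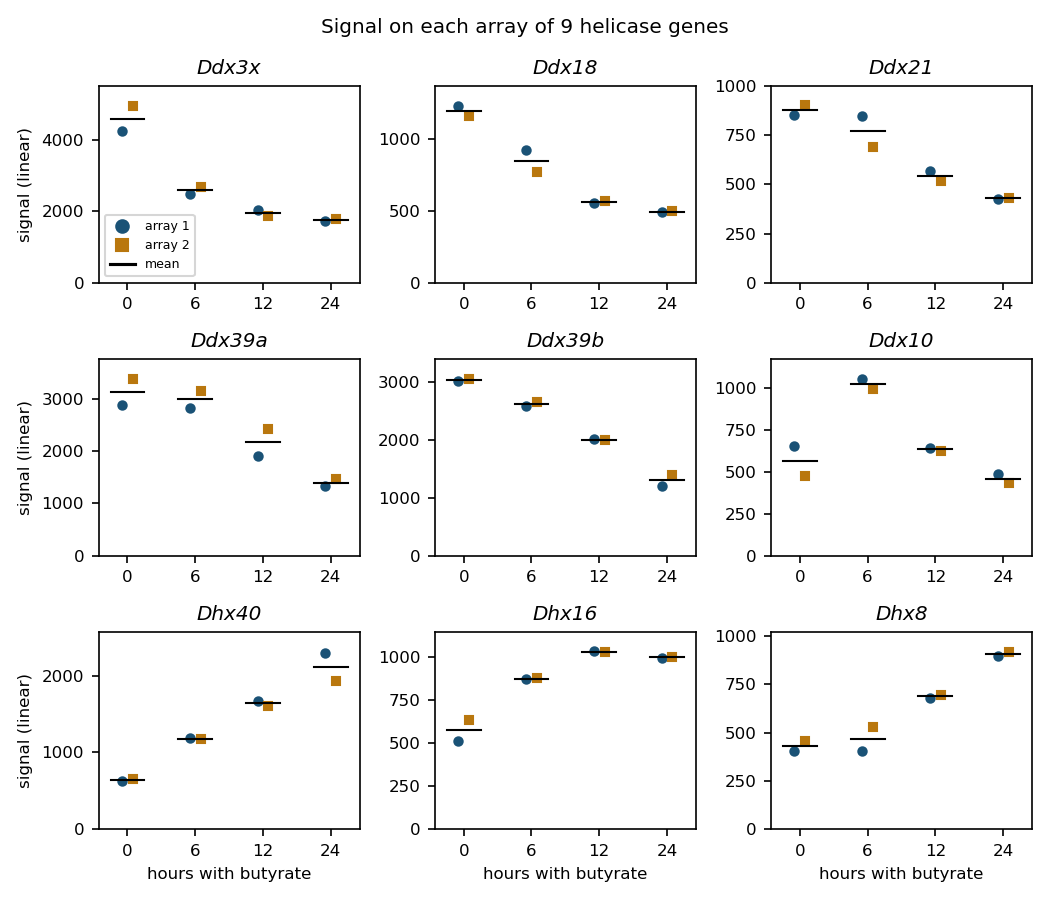
Linear signal of 9 helicase genes on each of the 8 arrays by hours with butyrate (circles, array 1; squares, array 2; lines, mean of the 2 arrays). Ddx3x, Ddx18, Ddx21, Ddx39a and Ddx39b are lowest at 24 h, Dhx40 and Dhx8 are highest at 24 h, and Ddx10 is highest at 6 h.

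Of the 8 splicing helicases, 4 were lower and 2 higher at 24 h, where 23.5% of all genes were lower and 24.6% higher, a share near that of the 2 higher members. These were Dhx16 and Dhx8, whose yeast counterparts are Prp2, which activates the assembled spliceosome, and Prp22, which releases the spliced mRNA. Dhx16 gave 510.1 and 634.5 at 0 h, 871.0 and 874.2 at 6 h, 1030 and 1030 at 12 h and 994.2 and 999.1 at 24 h. All arrays with butyrate were above both 0 h arrays, with log2 changes of 0.59 at 6 h (adjusted p = 0.0317), 0.82 at 12 h (adjusted p = 0.00309) and 0.78 ± 0.16 at 24 h (adjusted p = 0.00268). The 6 h call was lost without 0 h replicate 1 (0.199), 0 h replicate 2 (0.0501) or either 6 h array (0.0996 and 0.102).

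Dhx8 had signals of 406.4 and 456.4 at 0 h, 406.1 and 528.2 at 6 h, 680.5 and 693.2 at 12 h and 894.8 and 917.1 at 24 h. The 6 h arrays overlapped with those of 0 h, and the later arrays lay above them. It was 2.03-fold higher at 24 h (log2 change 1.02 ± 0.17, adjusted p = 0.000755) and 1.55-fold higher at 12 h (adjusted p = 0.0145). The 12 h call did not hold without 0 h replicate 1 (0.0895), 12 h replicate 1 (0.0569) or 12 h replicate 2 (0.067).

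Dhx38, whose yeast counterpart Prp16 remodels the spliceosome between the catalytic steps, read 234.2 and 185.9 at 0 h, 92.7 and 199.4 at 6 h, 23.2 and 82.8 at 12 h and 37.4 and 22.5 at 24 h. Only 3 arrays, both of 0 h and 1 of 6 h, were above the median of all signals, so the gene entered the test through the time at which it was high. The log2 change was -1.97 ± 0.35 at 24 h (adjusted p = 0.00119) and ran from -2.31 to -1.54 over the alternatives. The 24 h signals stood near the added constant of 32.

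The remaining splicing members that fell were called only at 24 h. Dhx15, whose yeast counterpart Prp43 takes apart the spent spliceosome, gave 2615 and 3513 at 24 h and 5245 and 5348 at 0 h (log2 change -0.80 ± 0.20, adjusted p = 0.00869). Its second probe set was not called at 24 h in a fit of all probe sets (log2 change -0.49, adjusted p = 0.0639). Ddx20, the Gemin3 subunit of the SMN complex that assembles spliceosomal snRNPs, gave 447.8 and 353.5 at 24 h and 702.2 and 636.3 at 0 h (log2 change -0.70, adjusted p = 0.0125). Ddx41, a helicase found in catalytic spliceosomes, was at 224.5 and 249.2 at 24 h and 322.4 and 387.7 at 0 h (log2 change -0.52, adjusted p = 0.0285). The groups did not overlap for any of the 3, as for 30 of the 35 tested members at 24 h, called or not. That count was not made for all genes. The calls were lost without 24 h replicate 1 for Dhx15 (0.076), without 24 h replicate 2 (0.0925) or 0 h replicate 1 (0.074) for Ddx20, and without either 24 h array (0.129 and 0.0584) or 0 h replicate 2 (0.168) for Ddx41.

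Ddx42, associated with the SF3b complex of the U2 snRNP, was not called at any time, with a log2 change of 0.16 at 24 h (95% interval -0.23 to 0.55). Ddx46, whose yeast counterpart Prp5 helps the U2 snRNP bind the branch point, was not called at the probe set used (log2 change -0.09 at 24 h), but another of its 3 probe sets was higher by 0.77 (adjusted p = 0.0039 in a fit of all probe sets). Of 20 other spliceosome genes tested, 7 were lower and 1 higher at 24 h, where 23.5% of all genes were lower and 24.6% higher. The median log2 change of the 20 was -0.19. The 3 with the largest change were Prpf6, a protein of the U4/U6.U5 tri-snRNP (1.76-fold higher), Snrpb, a core Sm protein (1.74-fold lower), and the small U2AF subunit U2af1 (1.67-fold lower).

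The export helicases Ddx39a and Ddx39b both fell. Ddx39b (UAP56) is the helicase of the TREX complex, which loads export factors onto spliced mRNA, and Ddx39a (URH49) is its close paralog. Ddx39b gave 3016 and 3044 at 0 h, 2580 and 2659 at 6 h, 2012 and 1991 at 12 h and 1200 and 1400 at 24 h. Every later time was below the one before with no overlap between arrays. Its log2 change from 0 h was -1.21 ± 0.15 at 24 h (adjusted p = 0.000148), -0.59 ± 0.15 at 12 h (adjusted p = 0.0131) and -0.21 at 6 h (adjusted p = 0.412).

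Ddx39a gave 2883 and 3370 at 0 h, 2824 and 3143 at 6 h, 1905 and 2425 at 12 h and 1332 and 1464 at 24 h. The 6 h arrays overlapped with those of 0 h, while those of 12 h and 24 h were below them. The log2 change was -1.14 ± 0.18 at 24 h (adjusted p = 0.000505) and -0.53 at 12 h (adjusted p = 0.0388). The 12 h calls of both paralogs depended on single arrays. That of Ddx39a was lost without 12 h replicate 1 (0.236), 0 h replicate 1 (0.0633) or 0 h replicate 2 (0.202), and that of Ddx39b without any 1 of the 12 h arrays (0.0553 and 0.062) or 0 h arrays (0.0564 and 0.061). Of the 4 other kept probe sets of Ddx39a, 3 were called lower at 24 h, and the other kept one of Ddx39b was lower by -0.81. Whether probe sets of these close paralogs share signal was not tested.

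Ddx19b, the counterpart of yeast Dbp5, which releases mRNA on the outer face of the nuclear pore, was dim. It gave 183.5 and 130.3 at 0 h, 148.1 and 141.0 at 6 h, 137.0 and 99.5 at 12 h and 125.7 and 114.9 at 24 h, with 2 of the 8 arrays above the median of all signals. It was not called at any time (log2 change -0.30 at 24 h, 95% interval -0.72 to 0.12, adjusted p = 0.226). Of 13 other export genes tested, 7 were lower and 0 higher at 24 h, where 23.5% of all genes were lower and 24.6% higher. The median log2 change of the 13 at 24 h was -0.56. Of them 5 were lower at 12 h and 1 at 6 h, where 17.5% and 6.68% of all genes were. Alyref, the adaptor that works with Ddx39b in TREX, was 3.72-fold lower at 24 h, and the THO subunits Thoc7 and Thoc3 were 3.26-fold and 2.57-fold lower.

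Ddx3x, an X-linked helicase that promotes translation of mRNAs with structured leaders, changed early. Its signals were 4263 and 4950 at 0 h, 2491 and 2684 at 6 h, 2047 and 1873 at 12 h and 1726 and 1793 at 24 h. All later arrays were below both 0 h arrays. It was 1.77-fold lower at 6 h (log2 change -0.82 ± 0.16, adjusted p = 0.00746), 2.32-fold lower at 12 h (adjusted p = 0.000335) and 2.58-fold lower at 24 h (log2 change -1.37 ± 0.16, adjusted p = 7.95e-05). Its other 2 probe sets were lower at 24 h as well, by log2 changes of -1.51 and -1.06, and the 6 h call was lost without 0 h replicate 2 (0.0613).

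Dhx36, which unwinds G-quadruplexes, was lower at 24 h, with 546.1 and 553.9 against 860.2 and 776.8 at 0 h (log2 change -0.55 ± 0.16, adjusted p = 0.0157), and at 12 h (-0.46, adjusted p = 0.044). Its second probe set was not called, with a log2 change of -0.06 at 24 h (adjusted p = 0.809), and the 24 h call was lost without 0 h replicate 1 (0.0914) or either 24 h array (0.064 and 0.0555). The 12 h call was lost without any 1 array of 0 h (0.189 and 0.0857), 12 h (0.101 and 0.174) or 24 h (0.0562 and 0.0565). Ddx6, an activator of decapping in P-bodies, was not called at the probe set used (log2 change -0.27 at 24 h, adjusted p = 0.198), but its 2 other probe sets were lower at 24 h in a fit of all probe sets, by -0.91 (adjusted p = 0.00616) and -0.80 (adjusted p = 0.00563). Of 8 other mRNA decay genes tested, 1, the decapping cofactor Dcp1a (1.45-fold lower), was lower and 0 were higher at 24 h. Among all genes tested, 23.5% were lower and 24.6% higher at that time.

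**Figure D4:**
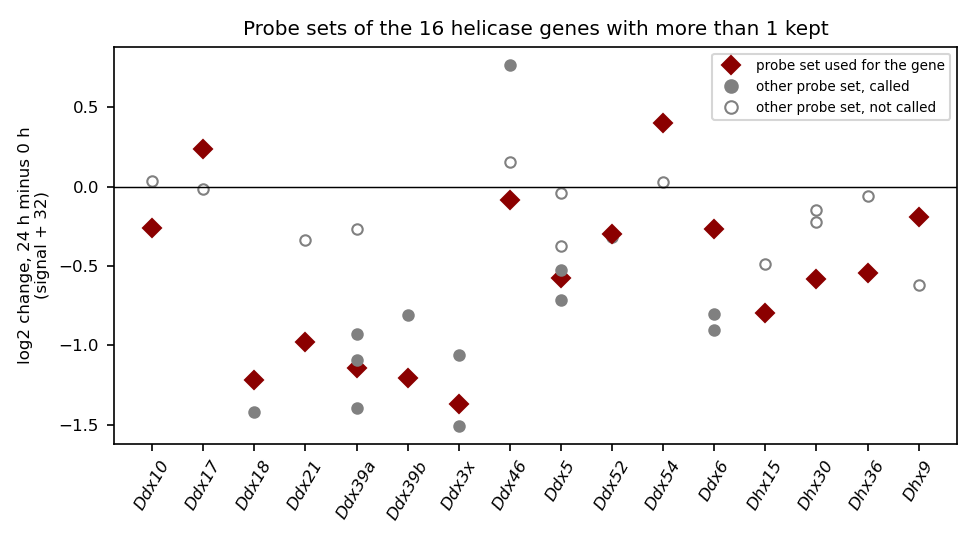
Log2 change, 24 h minus 0 h (signal + 32), of each probe set above the filter for the 16 helicase genes that have more than 1. Diamonds are the probe sets used for the gene, filled circles other probe sets that were called, and open circles others that were not. Ddx3x, Ddx18 and Ddx39b are below 0 and called at each of their probe sets, while the probe sets of Ddx46 lie between -0.09 and 0.77.

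Of the 4 helicases with roles in transcription and several other steps, Ddx17 was lower at 12 h, Ddx1 and Ddx5 were lower at 24 h, and Dhx9 was not called at any time. Ddx1, a subunit of the tRNA ligase complex, gave 3420 and 3449 at 0 h, 3136 and 3371 at 6 h, 2988 and 2994 at 12 h and 2061 and 2414 at 24 h. The 24 h arrays were below all others, with a log2 change of -0.62 ± 0.16 (adjusted p = 0.00809, and 0.0637 without 24 h replicate 1). Ddx5 (p68), a coregulator of transcription and a cofactor of microRNA processing, was at 2721 and 3306 at 24 h and 4168 and 4815 at 0 h (log2 change -0.57, adjusted p = 0.0219). That call was lost without 24 h replicate 1 (0.141) or 0 h replicate 2 (0.128). Of its 4 other kept probe sets, 2 were called lower at 24 h and 2 were not, with log2 changes of -0.71 to -0.04.

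Ddx17, the p72 paralog of Ddx5, gave 1990 and 2427 at 0 h, 2302 and 1531 at 6 h, 1645 and 930.4 at 12 h and 2622 and 2563 at 24 h. The 12 h arrays were the farthest apart of any time relative to their mean. It was lower at 12 h (log2 change -0.81 ± 0.27, adjusted p = 0.0376) and not called at 24 h (0.23, adjusted p = 0.5). The 12 h change was -0.41 once 12 h replicate 2 was left out (0.286), and it also missed the threshold with 0 h replicate 1 (0.0734) or 0 h replicate 2 (0.19) left out. The other kept probe set of Ddx17 was lower at 12 h as well in a fit of all probe sets (log2 change -0.77, adjusted p = 0.0134). At 24 h that probe set was not called (-0.02, adjusted p = 0.948). Dhx9, a helicase of transcription and of structured RNA, had a log2 change of -0.19 at 24 h (95% interval -0.72 to 0.34).

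Dhx30, which is needed for mitochondrial ribosome assembly, was among the first to fall at the probe set used. It gave 1037 and 1045 at 0 h, 550.2 and 636.2 at 6 h, 693.0 and 679.4 at 12 h and 630.2 and 740.2 at 24 h. All later arrays were below both 0 h arrays, and the log2 changes were -0.78 ± 0.16 at 6 h (adjusted p = 0.00958), -0.58 at 12 h (adjusted p = 0.0171) and -0.58 at 24 h (adjusted p = 0.012). Its other 2 kept probe sets were not called at any time in a fit of all probe sets. Their log2 changes were -0.19 (adjusted p = 0.729) and -0.50 (adjusted p = 0.115) at 6 h. They were 0.25 and -0.38 at 12 h, and -0.15 and -0.22 at 24 h. The call was lost at 6 h without either 0 h array (0.0541 and 0.0577) or 6 h replicate 1 (0.0582), at 12 h without any 1 of the 0 h (0.0692 and 0.0737) or 12 h arrays (0.064 and 0.0773), and at 24 h without either 0 h array (0.0505 and 0.0534) or 24 h replicate 1 (0.0853).

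The largest rise of the family was that of Dhx40, a DEAH member. Its signals were 621.8 and 652.3 at 0 h, 1186 and 1170 at 6 h, 1675 and 1606 at 12 h and 2291 and 1934 at 24 h. Each time was above the one before with no overlap between arrays. It was 1.81-fold higher at 6 h (adjusted p = 0.00586), 2.50-fold at 12 h (adjusted p = 0.000218) and 3.19-fold at 24 h (log2 change 1.68 ± 0.16, adjusted p = 2.39e-05), and passed the test at all 3 times under each of the 18 alternatives run, the only member to do so at 6 h.

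Dhx57 gave 357.9 and 392.0 at 0 h, 241.5 and 259.6 at 6 h, 228.0 and 241 at 12 h and 249.8 and 213.1 at 24 h. All later arrays were below both 0 h arrays, and the log2 change was -0.63 ± 0.16 at 24 h (adjusted p = 0.00742), -0.61 at 12 h (0.0124) and -0.53 at 6 h (0.0454). The 6 h call was lost without any 1 of the 8 arrays (adjusted p = 0.0517 to 0.203), nor did the 12 h call pass without 12 h replicate 1 (0.0656) or 0 h replicate 2 (0.0754). The 24 h call did not hold without 24 h replicate 2 (0.0559) or 0 h replicate 2 (0.0502). Ddx59 was not called against 0 h, with log2 changes of 0.36 at 24 h (adjusted p = 0.0869) and -0.45 at 6 h (adjusted p = 0.0893). Dhx32 was not called either (-0.08 at 24 h).

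The 2 members listed here under the sensing of viral RNA stayed below the filter. Each member was counted under 1 role only, so members under other roles are not covered by this. Ddx60, an interferon-induced cofactor of RNA sensing, read 4.0 and 43.9 at 0 h, 1.2 and 21.4 at 6 h, 5.9 and 6.8 at 12 h and 33.0 and 1.6 at 24 h. Dhx58, which encodes LGP2, a regulator of the RIG-I-like receptors, read 51.9 and 97.3 at 0 h, 56.3 and 78.5 at 6 h, 72.5 and 57.2 at 12 h and 93.1 and 58.0 at 24 h. No array of either was above the median of all signals, so neither was tested, and the arrays of the later times overlapped with those of 0 h for both. The germ cell helicases Ddx4 (0.8 to 39.6) and Ddx25 (16 to 88.8) were also below the median on every array. Of 12 other RNA sensing genes tested, 4 were lower and 2 higher at 24 h, where 23.5% and 24.6% of all genes were. The 3 called with the largest change were Tlr3, the endosomal receptor of double-stranded RNA (4.60-fold lower), the interferon-induced Ifit3 (2.69-fold lower) and the interferon regulatory factor Irf7 (1.79-fold higher). Each was above the median of all signals on 2 arrays only, those of the time at which it was high, so it entered the test through that time and its fold is taken against signal below the filter.

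Of 9 tested RNA helicases that carry other names, 4 were lower and 1 higher at 24 h, where 23.5% of all genes were lower and 24.6% higher. Their median log2 change at 24 h was -0.38. At 12 h 1 was lower and at 6 h 0, where 17.5% and 6.68% of all genes were. Supv3l1, a helicase of mitochondrial RNA decay, was 1.98-fold lower at 24 h and Mtrex, the helicase of the nuclear exosome, 1.62-fold lower. Skiv2l, the helicase of the cytoplasmic exosome, was 1.68-fold higher.

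Over the 26 other kept probe sets of 16 members, 17 belonged to members called at 24 h. All 17 moved in the direction of the probe set used, and 9 of them were called. Of the 9 that belonged to uncalled members, 3 were called, 2 of Ddx6 and 1 of Ddx46. These calls come from the fit of all probe sets. Out of 11508 probe sets in that fit, it called 22.7% lower and 23.5% higher for 24 h against 0 h. Whether the counts of called probe sets here differ from those shares was not tested.

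By subfamily, 12 of the 25 tested Ddx genes and 5 of the 10 tested Dhx genes were lower at 24 h, 48.0% and 50.0%, where 23.5% of all genes were. The higher members were 2 of 25 Ddx genes (8%) and 3 of 10 Dhx genes (30%), where 24.6% of all genes were higher, a share near that of the Dhx genes. The difference between the subfamilies was not tested. In time, the 3 members that were lower at 6 h, Ddx3x, Dhx30 and Dhx57, were lower at 12 h and 24 h too, and 10 of the 11 that were lower at 12 h were lower at 24 h, all but Ddx17. The 7 members first called lower at 24 h were Dhx15, Ddx5, Ddx1, Ddx20, Ddx27, Ddx41 and Ddx51. Of the higher members, Dhx40 and Dhx16 were called at all 3 times.

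Between neighbouring times few members differed. For 12 h against 6 h, limma called 0 of 35 members, where 2.03% of all genes were higher and 2.14% lower, and 12 members (34.3%) had an unadjusted p under 0.05, as had 20.5% of all genes. With the replicate block 2 members were lower, where 4.28% of all genes were, a share near theirs. For 24 h against 12 h, 1 member, Ddx39b, was lower (log2 change -0.61 ± 0.15, adjusted p = 0.0451), where 3.58% of all genes were lower and 1.81% higher, and with the block 3 were lower and 1 was higher, where 5.14% of all genes were lower and 3.39% higher. Ddx39b did not pass when any 1 of the 8 arrays was left out. Ddx17 was 2.07-fold higher at 24 h than at 12 h, which did not pass (adjusted p = 0.0504). For 24 h against 6 h, 11 members were lower and 3 higher, where 14.0% of all genes were lower and 12.2% higher.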

How the data were processed

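Signals of 22690 probe sets on the Affymetrix Mouse Expression Array 430A were used for 8 arrays, 2 at each of 4 times. The deposited values are linear signal intensity, and in the deposited table each array has a 2% trimmed mean of 500.2. The sources used here do not name the software behind them. Arrays of a time correlated at 0.975 to 0.99.

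Probe sets were named from the platform annotation: 20380 have 1 gene, 691 have several and were left unnamed, and 64 are controls. Probe sets above the median of all values (144.5) on at least 2 arrays were kept, 1 for each gene by the highest mean over the 8 arrays, which left 7340 genes. limma 3.58.1 in R 4.3.3 was fitted to log2(signal + 32) on all 8 arrays with time as the group (4 residual degrees of freedom, 6.37 prior), with Benjamini-Hochberg adjustment over all genes. Because of the added constant, folds of dim genes come out too small. Errors after a log2 change are standard errors of the fit, and intervals are 95%. The number of arrays limits the precision.

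Samples with the same replicate number deviated together, with correlations of 0.125 to 0.382 over the 6 pairs of times, so a fit with the number as a block was run. That pairing comes from the data and the shared numbers in the labels, which do not say what a number marks. The other 17 alternatives changed the added constant, filter, scaling, number of probe sets tested, variance model or arrays used. None of them was set to read a helicase at another of its probe sets.

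The text names, for each comparison with 0 h, up to 6 called members in each direction whose arrays do not overlap, every RNA sensing and export member, the leading member of each other role, and up to 3 called genes of each pathway list. Others were named after their values were seen. The members and lists were chosen with earlier results of these data known.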

Additional observations from a re-analysis of the deposited data

Results flagged for a closer look

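Listed here are the 5 members whose change from 0 h pointed one way at 24 h and the other way at 6 h and that were called for 24 h against 6 h, among 11 lower and 3 higher members in that comparison. Opposite signs at the 2 times favour a difference between them, so the adjusted p-values, from the same limma fit over all genes tested, are given as a description. Of the 5, the 6 h change from 0 h passed for Ddx10 only. Both changes from 0 h share the same 2 control arrays, and the 24 h against 6 h difference does not use those arrays as a baseline. Ddx10, a helicase of ribosome biogenesis, was lower at 24 h than at 6 h by a log2 change of -1.10 (adjusted p = 0.00143), with changes from 0 h of -0.26 at 24 h and 0.84 at 6 h. Ddx20, the Gemin3 subunit of the SMN complex, differed by -0.81 (adjusted p = 0.0119), with -0.70 at 24 h and 0.10 at 6 h. Ddx41, of the catalytic spliceosome, differed by -0.73 (adjusted p = 0.0108), with -0.52 at 24 h and 0.21 at 6 h. Ddx51, of the large ribosomal subunit, differed by -0.60 (adjusted p = 0.0269), with -0.47 at 24 h and 0.13 at 6 h. Ddx59 went the other way and was higher at 24 h than at 6 h by 0.81 (adjusted p = 0.00458), with 0.36 at 24 h and -0.45 at 6 h, neither of which passed against 0 h.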

How the results depend on the processing

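Of the calls against 0 h, 1 of 6 at 6 h (Dhx40), 5 of 14 at 12 h (Ddx3x, Dhx40, Dhx16, Ddx18 and Dhx38) and 9 of 22 at 24 h (these 5 with Ddx39a, Ddx39b, Ddx21 and Dhx8) passed under each of the 18 other settings in which the gene was tested. Dhx38 counts here with a reservation: it was above the median on 3 arrays, 2 of them of 0 h, and was not tested under the stricter filter. None of the 18 settings read a gene at another of its probe sets. Of the genes just named, Ddx21 and Ddx39a had another kept probe set that was not called at 24 h. All other kept probe sets of Ddx3x, Ddx18 and Ddx39b were called lower. Calls that were lost with all arrays kept were, besides those without the filter, Dhx57 at 6 h (all probe sets, 0.0584; trend and robust variances, 0.0622; only the 4 arrays compared, 0.0782), Dhx16 at 6 h (4 arrays, 0.066), Dhx36 at 12 h (all probe sets, 0.0524; 4 arrays, 0.0566), Ddx39a at 12 h (4 arrays, 0.0525), Ddx27 at 24 h (quantile, 0.0546) and Ddx51 at 24 h (all probe sets, 0.05; trend, 0.0522; 4 arrays, 0.0605). With 2 arrays a time, leaving 1 out leaves a time with a lone array, which is assumed to vary like the rest. Leaving out each array in turn, the members called at 24 h ranged from 3 to 5 higher and 8 to 16 lower, at 12 h from 2 to 3 higher and 4 to 11 lower, and at 6 h from 1 to 3 higher and 0 to 2 lower. For 24 h against 12 h they ranged from 0 to 1 higher and 0 to 0 lower. With no filter, 1 member was higher at 6 h, 6 were lower at 12 h, 3 were higher at 24 h and 0 were lower at 24 h against 12 h. The shares of all genes called without the filter were, in the same order, 2.19%, 7.24%, 13.5% and 0.71%. The count lower at 24 h against 12 h was also 0 with an added constant of 16, with all probe sets tested and with only the 4 arrays compared. It was 2 with trend and robust variances and 3 with the replicate block. In these 5 settings 3.16% to 5.14% of all genes were lower. The higher count for 24 h against 12 h was 1, against 0, with a constant of 64, the stricter filter, quantile scaling, trend and robust variances, and the block. There 1.61% to 3.39% of all genes were higher. For 12 h against 6 h, 2 were lower with the block, against 0, where 4.28% of all genes were. The block also brought past the threshold Ddx18 at 6 h (adjusted p = 0.0371), Ddx24 at 12 h (0.0185) and Ddx54 at 24 h (0.0353), and it changed no other call against 0 h. Leaving out members on s_at, x_at or dim probe sets, a setting chosen after seeing the data, left 29 members, with 5 higher and 15 lower at 24 h. The fit was the main one, in which 24.6% of all genes were higher and 23.5% lower.

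Log2 changes that turned sign when an array was left out are given as ranges over the arrays left out, and the cause was not tested. At 6 h these were Dhx15 (-0.439 to 0.0188), Ddx54 (-0.0467 to 0.111), Ddx39a (-0.176 to 0.0467), Dhx9 (-0.388 to 0.437), Ddx17 (-0.513 to 0.066), Dhx32 (-0.132 to 0.0636), Dhx8 (-0.0789 to 0.276), Ddx27 (-0.662 to 0.161) and Ddx46 (-0.02 to 0.462). At 12 h they were Ddx10 (-0.0327 to 0.401), Ddx20 (-0.336 to 0.127), Ddx46 (-0.0905 to 0.436), Ddx41 (-0.2 to 0.0595), Ddx42 (-0.00128 to 0.373) and Ddx59 (-0.0438 to 0.088). At 24 h they were Dhx32 (-0.183 to 0.013), Ddx50 (-0.286 to 0.403) and Ddx46 (-0.327 to 0.155). Another probe set of the gene, also added after seeing the data, turned the sign at 6 h for Dhx36 (0.035), Ddx52 (0.119) and Ddx21 (0.103), at 12 h for Dhx36 (0.0516), Dhx9 (-0.0945) and Dhx30 (0.254), and at 24 h for Ddx46 (0.154 and 0.765), Ddx10 (0.0371) and Ddx17 (-0.0183).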
